A study of Mus musculus with 6 samples.

Results

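SWI/SNF complexes are chromatin remodellers, and 10 genes of their subunits were followed here in mouse haematopoietic stem cells (HSCs): Smarca2, Smarca4, Smarcb1, Smarcc1, Smarcc2, Smarcd1, Smarcd2, Smarce1, Arid1a and Arid2. Their values were taken from every probe set that the array platform's annotation pairs with 1 of these symbols and no other. That gave 26 of the 45037 probe sets tested, with 1 to 4 probe sets per gene, for 10 of 18193 genes named. The mice were of the SCL-tTA H2B-GFP line, in which a tetracycline-controlled transactivator (tTA-S2), expressed from the endogenous scl locus, drives H2B-GFP, a histone fused to a green fluorescent protein, in HSCs and progenitors. All samples came from the bone marrow of such mice after a chase of 170 days on doxycycline, which stops synthesis of the fusion, and all passed the same surface gate (negative for lineage markers, CD34 and CD48, positive for Sca1, cKit and CD150). The label-retaining group (LRC) was GFP-positive and the non-LRC group GFP-negative, with 3 biological replicates each. Mouse age, and whether a sample was 1 animal or a pool, are not given in the sources used here. The scl promoter also limits the label to cells in which that locus was active, so a GFP-negative cell may have diluted the label or never carried it.

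The complexes use the energy of ATP to slide or evict nucleosomes and so alter access to enhancers and promoters. Each holds 1 of a pair of alternative ATPases, a scaffold, and further subunits that set its form: an Arid1 protein in the canonical complex, Arid2 in the polybromo complex, and neither in a non-canonical form that also lacks Smarcb1 and Smarce1. In mice the complex takes part in blood cell differentiation, and Smarcd2 is needed for granulocytes to mature.

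The promoters of the alternative ATPases Smarca4 and Smarca2 and of the scaffold gene Smarcc1 are shown because the ATPases are alternatives to each other and the groups of the leading Smarcc1 probe set did not overlap. They are taken from RefSeq promoter windows of the build GRCm38.p6 (250 bases before to 50 after a start site), shortened to the bases upstream of the outermost annotated start of the gene. Capitals mark a match to GCATGCGC or its reverse complement GCGCATGC, a motif chosen after the sequences were read. The Smarca4 stretch is chr9:21615919-21616105, the Smarca2 stretch chr19:26604910-26605072 and the Smarcc1 stretch chr9:110131774-110132023, all on the plus strand.
Smarca4: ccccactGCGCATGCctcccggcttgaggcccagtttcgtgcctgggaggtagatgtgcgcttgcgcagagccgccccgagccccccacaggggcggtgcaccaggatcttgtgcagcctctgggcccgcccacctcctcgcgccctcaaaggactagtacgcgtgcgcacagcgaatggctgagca
Smarca2: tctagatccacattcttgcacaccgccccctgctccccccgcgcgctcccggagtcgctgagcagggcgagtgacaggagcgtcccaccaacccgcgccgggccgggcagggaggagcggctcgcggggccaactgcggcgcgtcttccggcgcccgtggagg
Smarcc1: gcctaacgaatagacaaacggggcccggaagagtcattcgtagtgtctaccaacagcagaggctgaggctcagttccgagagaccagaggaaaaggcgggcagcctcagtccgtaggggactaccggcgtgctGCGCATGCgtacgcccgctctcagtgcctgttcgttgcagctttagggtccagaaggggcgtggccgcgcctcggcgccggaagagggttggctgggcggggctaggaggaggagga

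Of the 10 genes, 8 had a window in this table, with 9 windows because Arid1a has 2. CG dinucleotides numbered 4 to 48 per 300-base window, with a median of 33 against 7 over all 32851 windows of that length. The Smarcd2 window, which lies at a start site inside the gene, held the 4, and the Smarcc2 window held the 48. The motif was found, on either strand, in 3 of the 9 windows, those of Smarca4 with 2 matches and of Smarcb1 and Smarcc1 with 1 each. It was found in 2.71% of all windows. Because the motif was chosen after these sequences were read and itself holds CG, these shares are not a test of excess. Of the 2 matches of Smarca4, 1 lies in the stretch shown.

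The arrays were alike in overall level, with medians of 4.33 to 4.39 on the log2 scale. The array of LRC replicate 1 stood apart: its correlations with the others across probe sets were 0.901 to 0.919, where the highest pair reached 0.970. Hybridization controls, transcripts added to every sample, averaged 11.24 on LRC replicate 1 and 11.02 on LRC replicate 3, and 10.58 to 10.70 on the other 4 arrays. Log2 values of the 3′ Gapdh probe set exceeded those of the 5′ one by 3.16 to 4.16 in LRC and 2.72 to 3.42 in non-LRC. For actin the 3′ value minus the 5′ one was -0.61 to -0.04 in LRC and -0.23 to -0.16 in non-LRC. Of the gate's genes, Kit differed by 0.03 (SE 0.17, LRC minus non-LRC) and Cd48, low at 2.34 to 3.27, by -0.13 (SE 0.30). Slamf1, which encodes CD150, differed by -0.37 (SE 0.69). Cd34, negative in the gate, gave 7.43, 6.60 and 5.62 on non-LRC arrays 1 to 3 against 2.52, 6.97 and 5.10 on LRC arrays 1 to 3. Its difference was -1.69 (SE 1.12), or -0.52 without LRC replicate 1, and the groups overlapped. Of 12 measured genes of S phase and mitosis, 11 had a lower mean in LRC and for 6 the LRC group lay wholly under the non-LRC group, and the list mean was 7.06 to 8.04 in LRC and 8.16 to 8.80 in non-LRC. Of all genes, each read by its probe set of highest mean, 45.1% had a lower mean in LRC and 3.62% had LRC wholly under. T cell markers stayed low, with 4 of 6 below the array median on all arrays and list means of 3.39 to 3.84 in LRC and 3.49 to 3.69 in non-LRC. List means were 4.57 to 5.24 and 4.60 to 4.78 for B cell markers, in the same order of groups, and 3.88 to 4.07 and 3.82 to 4.08 for endothelial and stromal markers. They were 4.96 to 5.50 and 4.92 to 6.37 for erythroid, 4.73 to 5.14 and 4.92 to 6.09 for myeloid, and 5.22 to 5.30 and 5.05 to 6.27 for megakaryocyte markers. The upper ends of 6.37 and 6.09 were both those of non-LRC replicate 1. Car1 was at 7.34 on that array and 3.08 to 3.98 on the others, and S100a8 at 8.27 against 4.27 to 5.74. Not every marker was highest there, as Epor was highest on non-LRC replicate 2 and Mpo on LRC replicate 3.

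No SWI/SNF subunit gene passed the test between label-retaining and non-label-retaining HSCs. Limma with Benjamini-Hochberg adjustment over all probe sets called 0 of the 26 member probe sets, against a background of 0% of all probe sets. The smallest adjusted p among members was 0.998. An unadjusted p under 0.05 was reached by 2 of 26, an Smarcc1 and an Smarce1 probe set, beside 3.71% of all probe sets. Differences, always LRC minus non-LRC on the log2 scale, ran from -1.20 to 1.20. Of the 26 probe sets 12 had a higher and 14 a lower mean in LRC, where 44.7% of all probe sets had a lower mean. The median difference was -0.04 over the members and 0.04 over all probe sets. Standard errors of the members ran from 0.19 to 0.61, so 95% confidence intervals reached from 0.47 to 1.48 on either side of a difference. In bulk samples such as these, fewer cells expressing a gene and less of its RNA per cell cannot be told apart.

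**Figure D1:**
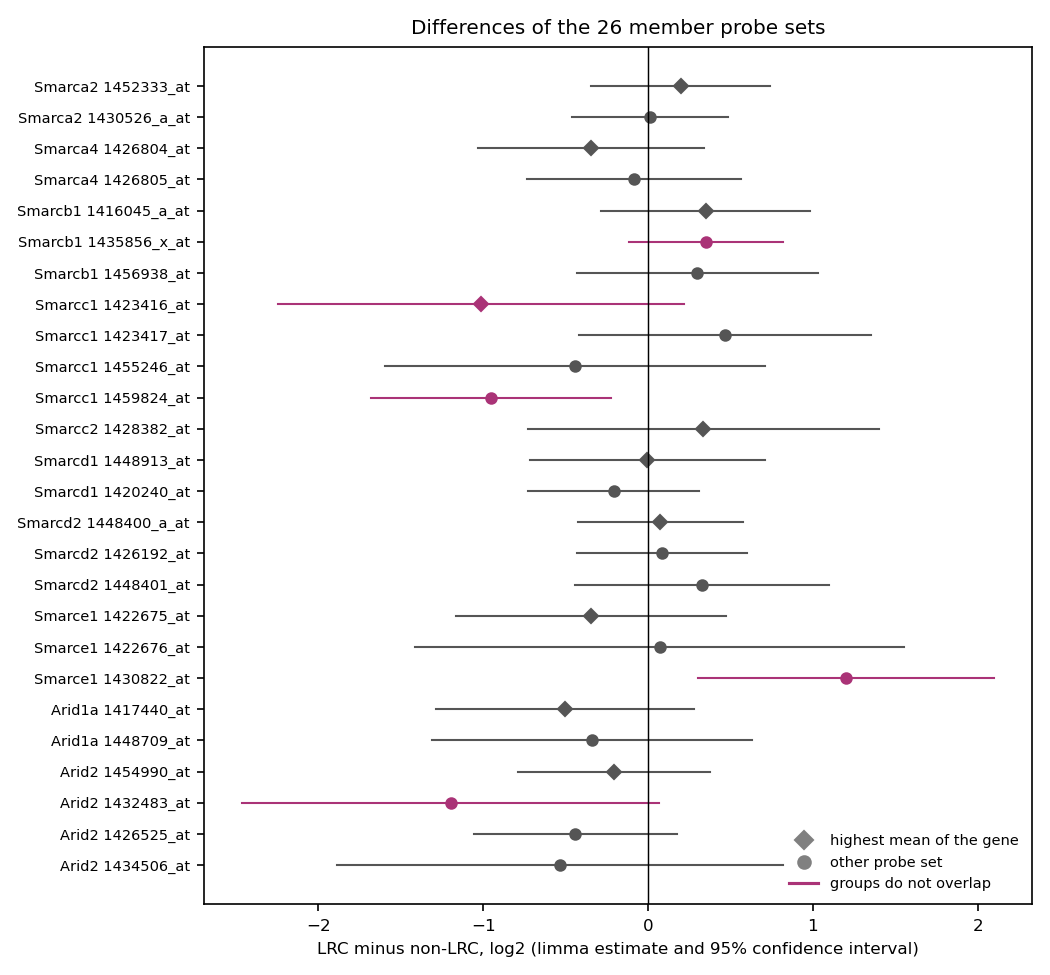
Limma estimate of LRC minus non-LRC on the log2 scale (horizontal axis) with its 95% confidence interval for each of the 26 member probe sets (vertical axis, grouped by gene). Zero lies within 24 of the 26 intervals, and the 5 probe sets whose groups did not overlap belong to Smarcb1, Smarcc1, Smarce1 and Arid2.

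Groups did not overlap for 5 of the 26 probe sets, with LRC below for 3 and above for 2. Over all probe sets this held for 8.28%, with LRC below in 3.4% and above in 4.88%. Of the 5, 2 are annotated to the same gene, Smarcc1. Without LRC replicate 1, groups did not overlap for 6 of the 26, beside 17.1% of all probe sets. As for level, 24 of the 26 probe sets lay above the array median on all 6 arrays. The exceptions were an Smarcd1 probe set below it on every array and an Smarcc1 probe set above it on 1 array. The share of all probe sets above the median on all 6 arrays is not given here. Lying above the median is not a call of detection. Of 5 measured B cell markers, Cd79b and Vpreb1 also lay above it on all 6 arrays, and 3 lay below it on all.

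The ATPase genes were Smarca2, which encodes BRM, and Smarca4, which encodes BRG1. Smarca2 (1452333_at) gave 9.48, 9.98 and 10.10 on non-LRC arrays 1 to 3 and 9.98, 10.03 and 10.13 on LRC arrays 1 to 3, the order of replicates used throughout. The LRC values were tightly grouped and lay within or just above the non-LRC range, whose lowest value was that of replicate 1. The difference was 0.20 (SE 0.22, 95% confidence interval -0.35 to 0.74), and it was 0.01 without non-LRC replicate 1. The other Smarca2 probe set gave 0.01 (SE 0.20).

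Smarca4 (1426804_at) gave 8.66, 8.37 and 8.38 on the non-LRC arrays against 7.57, 8.41 and 8.40 on the LRC arrays. LRC replicate 1 alone was low, and the other 2 LRC arrays lay within the non-LRC range. The difference was -0.34 (SE 0.28, 95% confidence interval -1.03 to 0.34). It was -0.07 without LRC replicate 1 and -0.01 when the level of the hybridization controls was fitted as a covariate (below, the control covariate). That level was 10.60 to 11.24 in LRC and 10.58 to 10.70 in non-LRC. It is thus partly tied to the group, and fitting it may also take up part of a group difference in any gene. The other Smarca4 probe set differed by -0.08 (SE 0.27), which became 0.07 without LRC replicate 1.

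**Figure D2:**
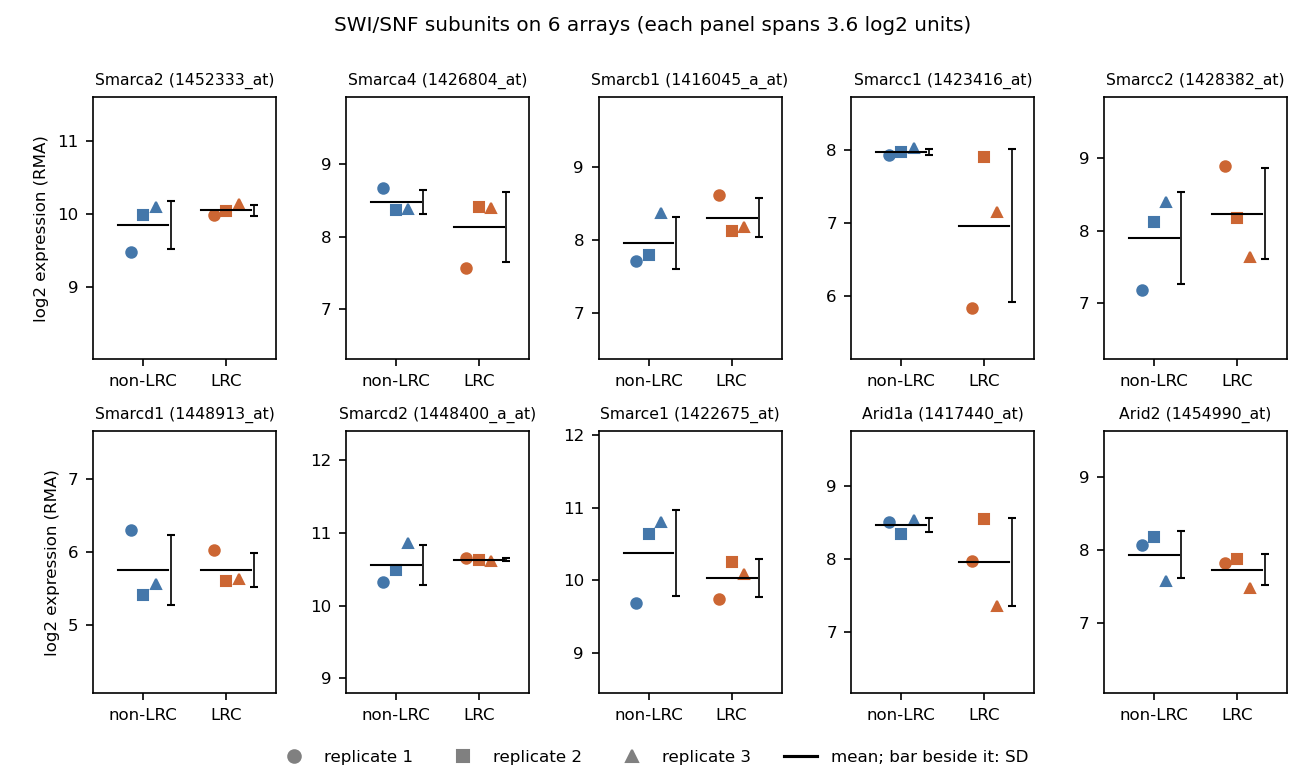
Log2 expression (vertical axis) of the 10 subunit genes by group, each by its probe set of highest mean, with 1 symbol per array, the group mean as a line and the SD (n = 3) as a bar. For Smarcc1 the 3 non-LRC arrays sit between 7.94 and 8.02 and all 3 LRC arrays below them, while the groups of the other 9 genes overlap.

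Among the core subunits, Smarcb1 encodes SNF5, which contacts the nucleosome, and all 3 of its probe sets had a higher mean in LRC. The probe set of highest mean (1416045_a_at) gave 7.70, 7.79 and 8.37 on the non-LRC arrays against 8.61, 8.12 and 8.17 on the LRC arrays. The groups overlapped through non-LRC replicate 3, which lay above 2 of the LRC arrays. The difference was 0.35 (SE 0.26, 95% confidence interval -0.28 to 0.99), a 1.27-fold difference. It was 0.20 without LRC replicate 1, 0.56 without non-LRC replicate 3 and 0.18 with the control covariate.

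A further Smarcb1 probe set (1435856_x_at) gave 7.69, 7.76 and 7.90 on the non-LRC arrays against 8.29, 8.21 and 7.91 on the LRC arrays. Its groups did not overlap, but the lowest LRC and the highest non-LRC value nearly touched. It differed by 0.35 (SE 0.19, 95% confidence interval -0.11 to 0.82), ranging from 0.27 to 0.47 as arrays were dropped one at a time, and 0.36 with the control covariate. In the manufacturer's naming, the suffix x_at marks probes that may also match other transcripts. The third probe set differed by 0.30 (SE 0.30), which became -0.0022 without LRC replicate 1, the array where it was highest.

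Smarcc1 encodes BAF155, a scaffold on which the core assembles, and the LRC arrays of its leading probe set had the widest spread among the 10 genes (SD 1.05, n = 3). That probe set (1423416_at) gave 7.94, 7.97 and 8.02 on the non-LRC arrays against 5.83, 7.91 and 7.15 on the LRC arrays. The non-LRC arrays were nearly identical, and the LRC arrays lay below them by very unequal amounts: replicate 1 far below, replicate 2 just below. The difference was -1.01 (SE 0.51, 95% confidence interval -2.25 to 0.22), a 2.02-fold lower mean in LRC that did not pass. It was -0.45 without LRC replicate 1 and -1.49 without LRC replicate 2. LRC replicates 1 and 3, the low arrays, were those with bright hybridization controls, and with the control covariate the difference was -0.04. The part of that level in the result was not tested.

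The Smarcc1 probe set of lowest mean (1459824_at) gave 4.70, 3.69 and 4.29 on the non-LRC arrays against 3.22, 3.52 and 3.09 on the LRC arrays. The whole LRC group lay under the non-LRC group, but only non-LRC replicate 1 exceeded its array median. The difference was -0.95 (SE 0.30, limma adjusted p = 0.998, unadjusted p under 0.05), ranging from -1.22 to -0.71 as arrays were dropped one at a time, and -0.85 with the control covariate. The other Smarcc1 probe sets disagreed in sign. They differed by -0.44 (SE 0.48) and 0.47 (SE 0.37), the latter with LRC replicate 1 as its highest array at 8.06. The first was 0.02 without non-LRC replicate 3 and 0.09 with the control covariate, and the second 0.20 without LRC replicate 1. Over the mean of all 4 probe sets the gene differed by -0.48.

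Smarcc2 encodes BAF170, the paralogue of BAF155, and had 1 probe set (1428382_at). It gave 7.18, 8.12 and 8.39 on the non-LRC arrays against 8.88, 8.18 and 7.64 on the LRC arrays. Replicate 1 was the lowest array of its group in non-LRC and the highest in LRC, and the groups overlapped. The difference was 0.34 (SE 0.44, 95% confidence interval -0.73 to 1.40), or -0.02 without non-LRC replicate 1 and 0.01 without LRC replicate 1.

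Smarcd1 and Smarcd2 encode BAF60A and BAF60B, alternative subunits that link the complex to transcription factors. Smarcd1 (1448913_at) gave 6.31, 5.41 and 5.56 on the non-LRC arrays against 6.03, 5.61 and 5.63 on the LRC arrays. The groups lay within each other, with replicate 1 highest in both. Its difference was -0.0041 (SE 0.29, 95% confidence interval -0.72 to 0.71). The other Smarcd1 probe set stayed at 1.95 to 2.59, below the median of every array.

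Smarcd2 (1448400_a_at) gave 10.32, 10.48 and 10.87 on the non-LRC arrays against 10.65, 10.63 and 10.61 on the LRC arrays. Its LRC arrays were the most alike of any subunit's (SD 0.02, n = 3) and lay within the non-LRC range. The difference was 0.07 (SE 0.21, 95% confidence interval -0.43 to 0.57). The other 2 Smarcd2 probe sets differed by 0.08 (SE 0.21) and 0.33 (SE 0.32), the latter falling to 0.03 without LRC replicate 1.

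Smarce1 encodes BAF57, an HMG-box subunit that binds DNA, and its 3 probe sets gave different pictures. The one of highest mean (1422675_at) gave 9.69, 10.63 and 10.80 on the non-LRC arrays against 9.75, 10.25 and 10.09 on the LRC arrays. The LRC values lay inside the non-LRC range, which was widened by replicate 1. The difference was -0.34 (SE 0.34, 95% confidence interval -1.17 to 0.48), and 0.00082 with the control covariate. It was -0.69 without non-LRC replicate 1 and -0.13 without non-LRC replicate 3. A second probe set differed by 0.07 (SE 0.61, the largest standard error among the members). That value was 0.69 without LRC replicate 1, -0.34 without non-LRC replicate 1 and 1.04 with the control covariate.

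The third Smarce1 probe set (1430822_at) gave 4.91, 6.01 and 6.01 on the non-LRC arrays against 7.26, 6.65 and 6.64 on the LRC arrays. Every LRC array lay above every non-LRC array, with replicate 1 the lowest of all in non-LRC and the highest of all in LRC. The difference was 1.20 (SE 0.37, limma adjusted p = 0.998, unadjusted p under 0.05), a 2.30-fold higher mean in LRC that did not pass. It ranged from 0.84 to 1.39 as arrays were dropped one at a time and was 1.06 with the control covariate. Which part of the gene each probe set reads is not used here, so the probe sets cannot be assigned to transcript forms.

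The ARID subunits had lower means in LRC in all of their probe sets, 2 for Arid1a and 4 for Arid2. Arid1a, the DNA-binding subunit of the canonical complex, gave 8.51, 8.35 and 8.54 on the non-LRC arrays against 7.97, 8.56 and 7.35 on the LRC arrays (1417440_at). LRC replicate 2 was the highest of all 6 arrays while the other 2 LRC arrays were the lowest. The difference was -0.51 (SE 0.32, 95% confidence interval -1.29 to 0.28), or -0.20 without LRC replicate 3, -0.80 without LRC replicate 2 and -0.14 with the control covariate. The second Arid1a probe set differed by -0.34 (SE 0.40), which became -0.02 without non-LRC replicate 2 and 0.05 with the control covariate.

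Arid2, the ARID subunit of the polybromo form, had 3 probe sets of nearly equal mean. The highest (1454990_at) gave 8.06, 8.17 and 7.57 on the non-LRC arrays against 7.82, 7.88 and 7.48 on the LRC arrays. The groups overlapped through non-LRC replicate 3, and the difference was -0.21 (SE 0.24, 95% confidence interval -0.79 to 0.37).

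The next Arid2 probe set (1432483_at) gave 8.12, 8.52 and 8.63 on the non-LRC arrays against 7.81, 7.86 and 6.01 on the LRC arrays. All LRC arrays lay below all non-LRC arrays, most of all replicate 3. The difference was -1.20 (SE 0.52, 95% confidence interval -2.46 to 0.07), a 2.29-fold lower mean in LRC that did not pass. It was -0.59 without LRC replicate 3 and -0.95 with the control covariate. The other 2 probe sets differed by -0.44 (SE 0.25) and -0.53 (SE 0.56). The latter was -0.02 without LRC replicate 1 and 0.24 with the control covariate. Over the mean of its 4 probe sets Arid2 differed by -0.59 and Arid1a, over its 2, by -0.42. The S phase and mitosis list was lower in the same LRC samples. Beside it stood the lower means of the leading Smarcc1 probe set and the ARID genes, but also the higher means of Smarcb1, Smarcc2 and Smarcd2. The part of that list in any of them was not tested.

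Probe sets annotated to 1 gene are not independent, but their signs show how far a gene's value depends on the probe set. Of the 9 members with at least 2 probe sets, 7 had a single sign: Smarca2, Smarcb1 and Smarcd2 higher in LRC, and Smarca4, Smarcd1, Arid1a and Arid2 lower. Some of these signs rest on very small differences, such as -0.0041 (SE 0.29) for Smarcd1 (1448913_at) and 0.01 (SE 0.20) for the second Smarca2 probe set. The other Smarcd1 probe set lay below the median of every array. Over all 9010 genes with at least 2 probe sets the share was 40.7%. The share falls with the number of probe sets, from 54.7% of genes with 2 to 32.97% with 3 and 20.5% with 4. Among the members a single sign was shown by all 4 genes with 2 probe sets, by 2 of 3 genes with 3 and by 1 of 2 with 4. Smarcc1 and Smarce1 were mixed. When each array was left out in turn, 17 of the 26 probe sets kept their sign in all 6 fits. The share of all probe sets that did so is not given here, so this count is not read as a trait of the members.

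**Figure D3:**
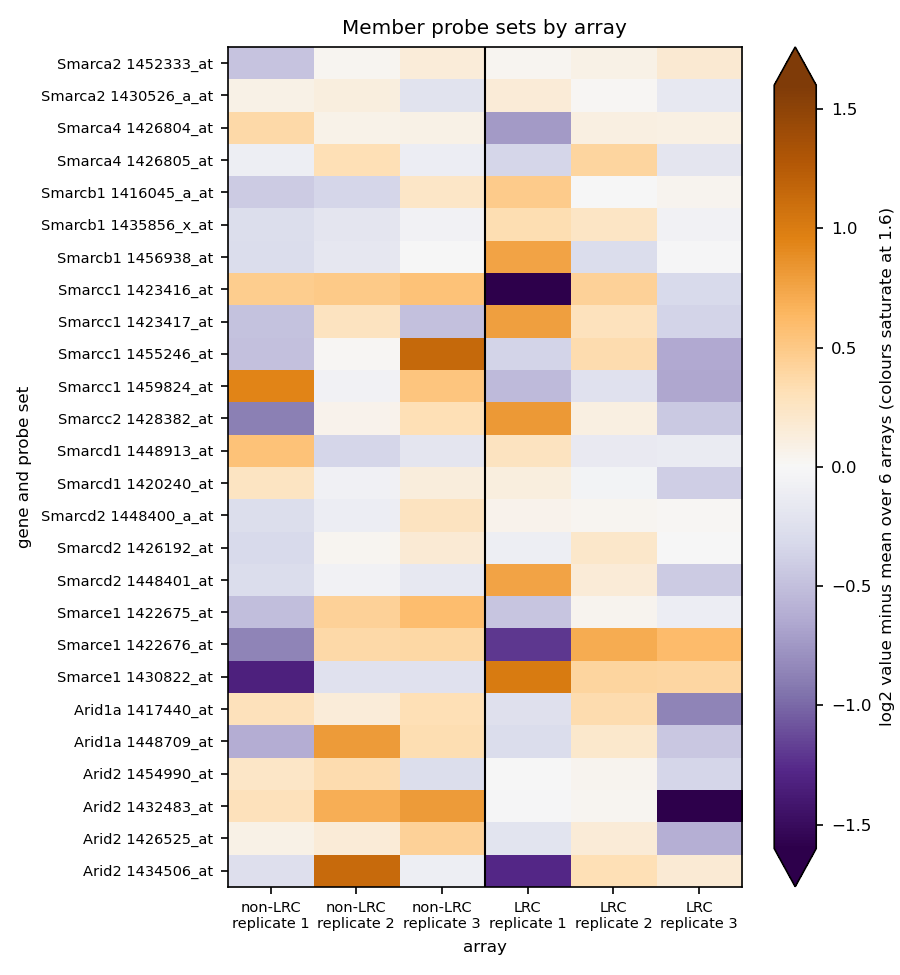
Deviation of each array (horizontal axis) from the mean over all 6 arrays, in log2 units (colour), for the 26 member probe sets (vertical axis). LRC replicate 1 and non-LRC replicate 1 hold most of the highest and lowest values, 13 and 14 of the 26 probe sets each.

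How single arrays moved the members was counted by how often an array was the highest or lowest of the 6. Non-LRC replicate 1 was at an extreme for 14 of the 26 probe sets, or 53.8%, and for 34.5% of all probe sets. LRC replicate 1 was at an extreme for 13, or 50%, and for 48.0% of all. The LRC replicate 1 share was thus near that of the whole array, and the non-LRC replicate 1 share was above it. Non-LRC replicate 1 was lowest in its group for the leading probe sets of Smarca2, Smarcb1, Smarcc1, Smarcc2, Smarcd2 and Smarce1. Its median deviation over the member probe sets was -0.27, the lowest of the 6 arrays, where the others had -0.17 to 0.16. The SD was larger in LRC than in non-LRC for 13 of the 26, beside 61% of all probe sets.

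Related subunits were set against each other within each array, which asks whether a pair changed unequally. Smarcc1 and Smarcc2 were paired as paralogues and not as alternatives. The level of such a ratio depends on the probes, so only its difference between groups was read. In the pair of ATPases, the log2 difference Smarca4 minus Smarca2 was -0.81, -1.61 and -1.72 in non-LRC and -2.41, -1.62 and -1.74 in LRC. The replicates 2 and 3 of both groups nearly coincided and the groups overlapped. The difference between groups was -0.54, with an exact permutation p of 0.2 (two-sided, n = 3 each, 0.4 adjusted over the 4 pairs). The smallest p this design allows is 0.1. It shrank to -0.26 when non-LRC replicate 1 was dropped, to -0.30 when LRC replicate 1 was, and to -0.29 with the control covariate.

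For the scaffold pair, Smarcc1 minus Smarcc2 was 0.76, -0.15 and -0.36 in non-LRC and -3.05, -0.27 and -0.49 in LRC. LRC replicate 1 lay far below the other 5 arrays. The difference was -1.35 (exact permutation p = 0.2, adjusted p = 0.4), and -0.46 without that array. It was -1.85 without LRC replicate 2 and -0.24 with the control covariate. Smarcd1 minus Smarcd2 differed by -0.08 between the groups (exact permutation p = 1). Arid1a minus Arid2 differed by -0.30 (exact permutation p = 0.4, adjusted p = 0.533). By the probe sets of highest mean, no pair had groups that did not overlap. Over the mean of all probe sets of each gene, Smarcc1 minus Smarcc2 differed by -0.82 (exact permutation p = 0.1, adjusted p = 0.4). That p is the smallest this design allows, so by this measure the groups of the pair did not overlap.

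**Figure D4:**
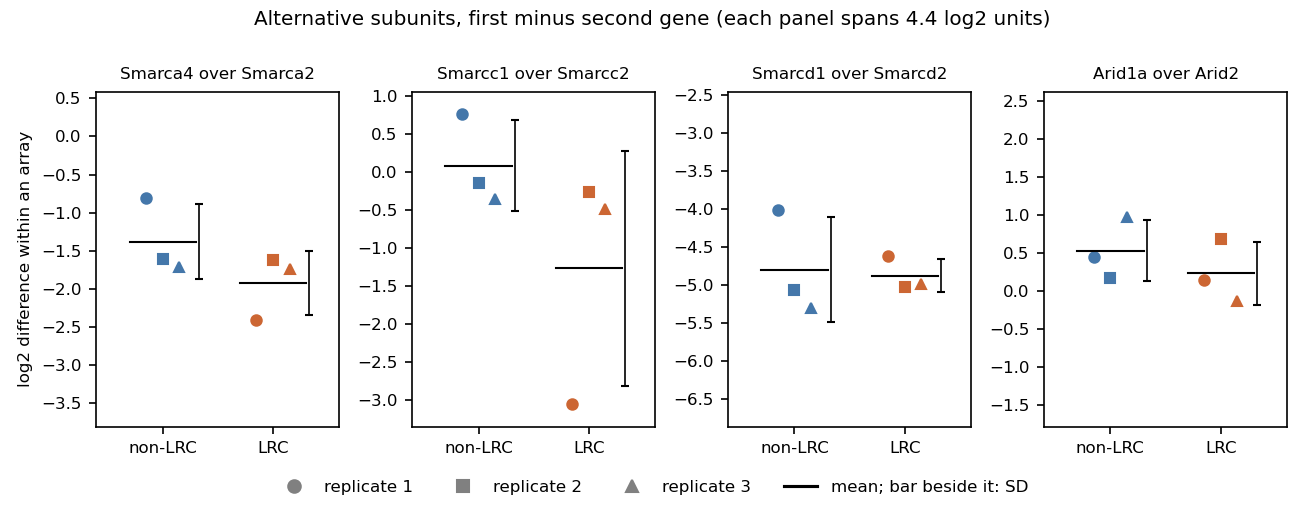
Within-array log2 difference between related subunits (vertical axis, first minus second gene) by group, with 1 symbol per array, the group mean as a line and the SD (n = 3) as a bar. Each gene is read by its probe set of highest mean. By these, the groups overlap in all 4 pairs, and LRC replicate 1 lies lowest for Smarca4 over Smarca2 and for Smarcc1 over Smarcc2.

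The other SWI/SNF subunit genes, 20 on the list and 20 measured, were read by 1 probe set each, that of highest mean. Limma called 0 of them (0% of all genes), and 0 had an unadjusted p under 0.05 (3.75% of all genes). A higher mean in LRC was found for 10 and a lower mean for 10 (45.1% of all genes were lower), with a median difference of 0.01. Groups did not overlap for 0 of the 20, against 8.32% of all genes. Of the 4 genes of smallest p, Bcl7b and Bcl7c differed by 0.51 (SE 0.23) and 0.82 (SE 0.39), and Brd7 and Phf10 by -0.88 (SE 0.41) and -0.86 (SE 0.56). In both Brd7 and Phf10, LRC replicate 2 lay within the non-LRC range and LRC replicates 1 and 3 lay below it. Brd7 differed by -0.60 and Phf10 by -0.39 without LRC replicate 1. Named after their values were seen, Bcl7a, the paralogue of Bcl7b and Bcl7c, differed by -0.65 (SE 0.44), the actin-like subunit gene Actl6a by -0.81 (SE 0.59) and Pbrm1, which encodes the polybromo subunit, by -0.15 (SE 0.47). Pbrm1 was at 0.23 without non-LRC replicate 3.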

How the data were processed

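Per the labels' protocols, RNA from the sorted cells went through 2 rounds of Nugen WT-Ovation Pico amplification before biotin labelling, with 1 array per sample. The deposited table holds a log2 value for each probe set and array, for which the submitters' processing notes name RMA (background correction, quantile normalization and summary of probes) with no version; the log base was read from the range of the values. Quantile normalization hides a change in total RNA per cell. Arrays carry no read depth, and precision is limited by there being 6.

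Of 45101 probe sets, 64 controls were left out. Symbols came from the platform annotation, and older ones were updated through gene identifiers (34945 probe sets with 1 symbol, 932 with several, 9160 with none). Columns of other samples numbered 0. LRC was tested against non-LRC in R 4.3.3 using limma 3.58.1 (lmFit, eBayes, no covariate, p adjusted over all probe sets, threshold 0.05), after a run on simulated data. Every member was named by its probe set of highest mean, and its other probe sets in full where groups did not overlap or the unadjusted p was under 0.05. Up to 4 genes were named per further remodeller list. The members and lists were chosen with earlier results of these data known.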

Additional observations from a re-analysis of the deposited data

How the results depend on the processing

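No member probe set was called in any refit, and the count over all probe sets was 0 in each refit that left out an array. With an unadjusted p under 0.05 and a difference of at least 1 as the rule, 774 of all 45037 probe sets were called. Of the 26 member probe sets 1 was called, too few to read against that share. The median member difference was -0.25 to 0.0063 when single arrays were left out, farthest from its reported value without LRC replicate 2.

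The Smarcd1 over Smarcd2 pair was 0.038 with array weights and -0.33 to 0.31 with single arrays left out. Arid1a over Arid2 was 0.039 with the control covariate and 0.17 over the mean of all probe sets. Smarcc2 was -0.036 with array weights and -0.022 to 0.63 with single arrays left out. Smarcd1 was 0.049 after quantile normalization again, 0.046 with array weights and -0.18 to 0.27 with single arrays left out. Smarcd2 was -0.044 to 0.23 with single arrays left out. Smarce1 (1422675_at) was 0.00082 with the control covariate and 0.31 over the mean of its probe sets. The cause of these sign changes was not tested. The other probe sets printed with values for every array, and the other pairs, kept their sign throughout. Some probe sets given by difference only did not. With the control covariate, such a probe set was at 0.31 for Smarca4, 0.24 for Arid2 and -0.15 for Smarcb1.

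Deviations of same-numbered arrays correlated at 0.08, 0.14 and 0.08, under the limit of 0.1 for 2 of 3 pairs, so the numbers were not taken as pairs, although each array correlated best with its own number. With the replicate number as a block, 0 probe sets were called and the median member difference was -0.04. The 40th percentile filter left no value for Smarcc1 (1459824_at).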

Other observations

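Other families of chromatin remodellers were read by 1 probe set per gene. Limma called 0 of 10 ISWI genes, 0 of 19 CHD and NuRD genes and 0 of 14 INO80, SRCAP and p400 genes at an adjusted p under 0.05, and 0, 0 and 2 had an unadjusted p under 0.05. The CHD and NuRD genes had 13 of 19 lower means in LRC, with a median difference of -0.13, where 45.1% of all genes had a lower mean. Hdac1, a histone deacetylase of NuRD, gave 8.50, 8.51 and 8.37 on the non-LRC arrays against 8.07, 8.22 and 7.60 on the LRC arrays, with no overlap and a difference of -0.50 (SE 0.22). Gatad2a differed by -0.47 (SE 0.23), Chd4, a NuRD ATPase, by -0.36 (SE 0.21) and Hdac2 by -0.33 (SE 0.20). Smarca5, an ISWI ATPase, gave 9.60, 9.22 and 9.32 on the non-LRC arrays against 8.92, 9.03 and 9.11 on the LRC arrays, also without overlap, and differed by -0.36 (SE 0.19).

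Also in the ISWI list, Chrac1 differed by 0.86 (SE 0.40), Rsf1 by -0.31 (SE 0.21) and Baz2a by 0.67 (SE 0.47), or 0.15 without non-LRC replicate 1. The 2 genes with an unadjusted p under 0.05 were subunits of large remodellers and differed in opposite directions. Ino80c, a subunit of the INO80 complex, gave 6.80, 5.97 and 6.69 on the non-LRC arrays against 3.66, 5.72 and 3.04 on the LRC arrays, a difference of -2.34 (SE 0.70, limma adjusted p = 0.998). LRC replicate 2, the LRC array without bright hybridization controls, lay just below the non-LRC range. Ep400, the p400 ATPase, gave 6.65, 7.30 and 8.10 on the non-LRC arrays against 8.36, 8.33 and 8.39 on the LRC arrays, a difference of 1.01 (SE 0.37, limma adjusted p = 0.998). Yeats4 differed by -0.41 (SE 0.27) and Ruvbl2 by -0.72 (SE 0.53), or by -0.16 without LRC replicate 3. Groups without overlap were 1 of 10, 1 of 19 and 2 of 14 genes, beside 8.32% of all genes.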
